A study of Mus musculus with 6 samples.

Results

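The genes described here make, break down or sense prostaglandins, the lipid mediators formed from arachidonic acid. The set was chosen by symbol and held 10 genes: the synthesis and breakdown genes Ptgs1, Ptgs2, Ptges, Ptgis, Ptgds and Hpgd, and the receptor genes Ptger1, Ptger2, Ptger4 and Ptgfr. Of the 10, 8 had a row among the 19730 rows of the expression table, and 5 of these 8 (Ptgs1, Ptgs2, Ptgds, Ptger1 and Ptger4) had a mean of at least 1 FPKM over the 6 libraries and entered the test, which covered 11898 rows. FPKM is the number of sequenced fragments of a transcript per kilobase of its length, scaled to the mapped fragments of its library. Hpgd, the dehydrogenase that starts prostaglandin breakdown, and Ptger2, a receptor for prostaglandin E2, had no row and were not analysed here.

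RNA-Seq was carried out on primary mouse mesangial cells, the contractile cells that hold the capillary loops of the kidney glomerulus together. All cultures were at passage 3 to 6, in DMEM with 25.5 mM glucose and 20% serum. There were 3 Control libraries, and 3 libraries from cells given TGF-β1, a secreted growth factor that drives scarring of the kidney, at 10 ng/ml for 72 h. The comparison asks which of these genes differ between TGF-β1-treated and control cells. Nothing in the labels says that the 3 libraries of a group came from separate cultures or animals, so p-values measure the spread between these libraries, which may be technical.

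Cyclooxygenases convert arachidonic acid, which phospholipases free from membranes, into prostaglandin H2. A separate synthase for each product then makes prostaglandin E2, D2, F2α, prostacyclin or thromboxane, and each of these acts on its own G protein-coupled receptors on nearby cells. In the glomerulus, prostaglandins are known for setting the tone of the vessels and of the mesangial cells, and Ptgs2, the inducible cyclooxygenase, is known as a gene that growth factors and cytokines switch on.

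Depth, recovered from the smallest steps between low FPKM values, was 10.1 to 10.9 M fragments per library. Across tested rows, 5721 of 11898 (48.1%) were called changed by limma at an adjusted p under 0.05, with 2911 upregulated (24.5%) and 2810 downregulated (23.6%). The 3 Control and the 3 TGF-β1 values did not overlap for 59.4% of tested rows, and without the filter on low values 30.5% of all 19730 rows were called. When libraries were scaled to the sum of their protein-coding rows instead, the split became 2015 up and 3927 down (33.9% up, against 50.9%), and the median change of all tested rows moved by −0.18 on the log2 scale. The replicate 2 libraries of both groups stood apart in part: their deviations from the group means had a correlation of 0.232 across genes, the highest of any Control and TGF-β1 pair, and the deviation of TGF-β1 replicate 2 ran against GC content (Spearman's rho −0.36 across genes, against −0.0689 to 0.288 in the other libraries). Of the markers for mesangial cells, Pdgfrb was at 28.4 to 41.1 FPKM, while Des, Itga8, Pdgfra and Thy1 were under 1 FPKM in every library.

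Of the 8 prostaglandin genes with a row, 4 were called changed. Both cyclooxygenase genes were upregulated, Ptgs2 strongly and Ptgs1 slightly. The prostaglandin D synthase Ptgds fell almost to the limit of detection, and the E receptor gene Ptger4 was downregulated. Ptger1 was not called, and Ptges, Ptgis and Ptgfr were under 1 FPKM on average in both groups. The 4 called genes were 4 of the 5 that entered the test, beside 48.1% of all tested rows. Genes that entered through 1 group alone, as Ptgds did, had to differ, so that count is a description.

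The sequence around the start of the genes is shown for the 2 cyclooxygenases, which share a reaction but differed in the size of their change, and for Ptgds, the member with the largest fall. Promoter windows of 300 bases, from 250 before the start to 50 after it, came from RefSeq on build GRCm38.p6 and were found for 8 of the 10 genes. Each sequence reads 5′ to 3′ on the strand of its gene, and capitals mark matches to the motifs named after the sequences.
Ptgs2, the 250 bases before the RefSeq start, chr1:150099781-150100030, plus strand: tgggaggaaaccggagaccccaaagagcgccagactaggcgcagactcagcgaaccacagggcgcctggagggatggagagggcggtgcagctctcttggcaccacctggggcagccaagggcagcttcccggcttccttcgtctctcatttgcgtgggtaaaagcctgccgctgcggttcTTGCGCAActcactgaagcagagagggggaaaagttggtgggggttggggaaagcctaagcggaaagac
Ptgs2, bases 4 to 33 from the RefSeq start, chr1:150100034-150100063, plus strand: gtcaccactaCGTCACGTGgagtccgcttt
Ptgs1, the 250 bases before the RefSeq start, chr2:36230176-36230425, plus strand: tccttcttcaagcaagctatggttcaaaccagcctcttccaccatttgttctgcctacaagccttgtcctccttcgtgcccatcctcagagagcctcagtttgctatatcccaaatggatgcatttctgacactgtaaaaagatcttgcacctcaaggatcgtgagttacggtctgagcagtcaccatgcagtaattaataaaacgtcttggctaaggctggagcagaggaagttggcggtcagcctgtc
Ptgds, bases −45 to −16 from the RefSeq start, chr2:25469765-25469794, minus strand: aggccaagccTGACTCAtaaatagggggtc

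The RefSeq start was not always the start of the transcript that the expression row names. Matched to the mm9 genome, the row's Ptgs2 transcript starts 94 bases past the end of the first stretch and 61 past the end of the second, so both stretches lie upstream of it. The row's Ptgs1 transcript starts at the next base. The row's Ptgds transcript starts upstream of the stretch shown, which therefore lies inside it. The motifs were searched on both strands of each window, and positions are counted from the RefSeq start. In Ptgs2, the palindrome TTGCGCAA, a C/EBP site, began at base −69, TGACG, the core of a cAMP response element, was read on the opposite strand from base 14, and the E-box CACGTG began at base 17, overlapping TGACG. Of 32851 RefSeq windows of the same length, 0.183% held TTGCGCAA, 20.8% held TGACG and 7.15% held CACGTG. TTGCGCAA was added to the motif list after the values were seen. Ptgds held TGAGTCA, an AP-1 site, on the opposite strand from base −35, a motif found in 5.20% of windows. Hpgd held TATAAA from base 5, as 13.6% of windows did. No motif of the list was found in the windows of Ptgs1, Ptges, Ptgfr, Ptger2 or Ptger4. TGACGTCA (1.79% of windows), the SMAD palindrome GTCTAGAC (0.213%) and the NF-κB consensus (0.155%) were in none of the 8. A match is a description of these letters, and its use in these cells was not tested.

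Ptgs2 encodes the inducible cyclooxygenase. Its gene lies on mm9 chromosome 1, 151947254 to 151955140 on the plus strand, and its row is the protein-coding transcript of 10 exons and 4143 nt. Ptgs2 was at 9.80, 7.12 and 8.82 FPKM in Control replicates 1 to 3, and at 47.5, 49.9 and 50.7 FPKM in TGF-β1 replicates 1 to 3. Every TGF-β1 library was far above every Control library, and the 3 treated libraries lay close together. These levels rested on 304 to 421 fragments in Control and on 1979 to 2134 with TGF-β1.

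The mean of Ptgs2 rose from 8.58 ± 1.36 to 49.4 ± 1.66 FPKM (SD, n = 3), a 5.75-fold higher level. In limma, the difference on the log2(FPKM + 1) scale was 2.40 with a standard error of 0.12 and a 95% interval of 2.12 to 2.69 (adjusted p = 3.61e-05). It was the 124th largest increase of 11898 tested rows. By level, Ptgs2 stood above 40.2% of tested rows in Control and above 82.7% with TGF-β1. Without the replicate 2 libraries the difference was 2.28 (adjusted p = 0.00201), and it lay between 2.22 and 2.52 under every one of the 18 alternative settings.

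Ptgs1 encodes the constitutive cyclooxygenase. It lies on mm9 chromosome 2, 36085946 to 36107792 on the plus strand, with a row of 2867 nt in 11 exons. Its level was 5.32, 5.03 and 4.02 FPKM in the Control libraries and 6.54, 7.29 and 6.19 FPKM in the TGF-β1 libraries. The groups did not overlap, but the gap between the lowest treated and the highest control library was of the order of the spread within a group.

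The mean of Ptgs1 went from 4.79 ± 0.683 to 6.67 ± 0.560 FPKM (SD, n = 3), or 1.39-fold. The log2 difference was 0.41 with a standard error of 0.12 and a 95% interval of 0.12 to 0.70, and limma called it upregulated (adjusted p = 0.0315). The call was lost in 8 of the 18 alternative settings. The adjusted p was 0.0595 with no filter, 0.124 with protein-coding scaling, which lowered the difference to 0.25, and 0.130 with replicates 1 and 3 alone. Leaving out 1 library also ended the call for Control replicate 2 (adjusted p = 0.0619), Control replicate 3 (0.0631), TGF-β1 replicate 1 (0.0821), TGF-β1 replicate 2 (0.0885) and TGF-β1 replicate 3 (0.0564). The direction was up in every setting.

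The balance of the 2 cyclooxygenases shifted towards Ptgs2. The ratio of Ptgs2 to Ptgs1 FPKM was 1.84, 1.41 and 2.19 in the Control libraries and 7.26, 6.84 and 8.19 in the TGF-β1 libraries. Every treated library was above every control library. Summed FPKM of both genes was 12.2 to 15.1 in Control and 54.1 to 57.2 with TGF-β1. Ptgs2 made up 64.0% ± 5.10 of that sum in Control, against 88.1% ± 0.949 after TGF-β1 (SD, n = 3). FPKM is per length, so levels of the genes can be set side by side in this way, and no test was run on the ratio.

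**Figure D1:**
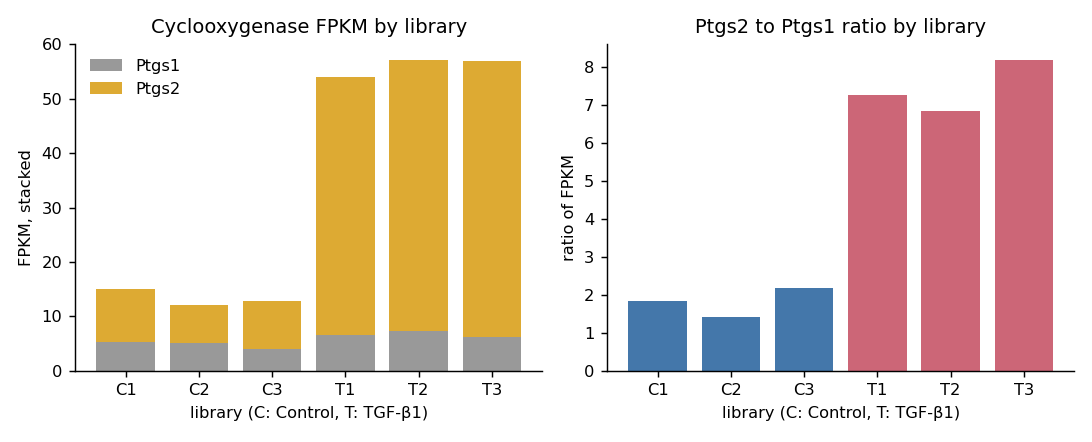
Left, stacked bars of Ptgs1 (grey) and Ptgs2 (yellow) FPKM in each of the 3 Control (C1 to C3) and 3 TGF-β1 (T1 to T3) libraries. Right, the ratio of Ptgs2 to Ptgs1 FPKM in the same libraries: it is 1.41 to 2.19 in Control and 6.84 to 8.19 with TGF-β1, and the added height on the left is nearly all Ptgs2.

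Ptgds, the lipocalin-type prostaglandin D synthase, moved the other way. The gene lies on mm9 chromosome 2, 25322229 to 25325566 on the minus strand, and its row is a protein-coding transcript of 901 nt. It was at 13.3, 13.4 and 10.3 FPKM in Control replicates 1 to 3, against 0.204, 0 and 0.788 FPKM in TGF-β1 replicates 1 to 3. In Control it was the most abundant of the 8 genes, and with TGF-β1 it was listed at 0 in replicate 2. The treated values rested on 2, 0 and 6 fragments against 102, 102 and 76 in Control, and 3 fragments correspond to 0.403 FPKM for this transcript.

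The mean of Ptgds was 12.4 ± 1.78 FPKM in Control, against 0.331 ± 0.409 FPKM after TGF-β1 (SD, n = 3). The difference on the log2(FPKM + 1) scale was −3.36 with a standard error of 0.23 and a 95% interval of −3.93 to −2.80 (limma, adjusted p = 0.000123), the 89th largest decrease of all tested rows. Because the treated level is near 0, this difference depends on the pseudocount: it was −5.37 with a pseudocount of 0.1 and between −3.60 and −3.12 in the other alternative settings. All 18 settings kept the call. Without the replicate 2 libraries the difference was −3.12 (adjusted p = 0.00464). Ptgds entered the test through the Control libraries alone and had to differ, so its call and its rank are descriptions. Ptgds stood above 50.7% of tested rows in Control and above 0.758% with TGF-β1.

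The rows most like Ptgds over the 6 libraries, by Euclidean distance of log2(FPKM + 1), were C4bp at 0.55, I830012O16Rik at 0.59 and Foxa1 at 0.69. C4bp, a complement regulator, was at 10.4 ± 0.631 FPKM in Control and 0.249 ± 0.181 FPKM with TGF-β1. Foxa1, a forkhead transcription factor, was at 13.2 ± 2.37 and 0.355 ± 0.123 FPKM. The distance weighs level as well as change, and the likeness is a description over 6 libraries that share 2 groups.

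Markers of other cells moved with the treatment too, beside both the fall of Ptgds and the rise of Ptgs2. The sum of 7 tubule epithelium markers was 43.3 to 47.9 FPKM in Control and 3.54 to 3.81 FPKM with TGF-β1, carried by Cldn2 and Aqp1, which were both called down, while Krt8 and Cdh1 were under 1 FPKM in every library. Krt18 and Krt19, of the same list and under the filter, were called up (0.279 to 1.57 and 0.156 to 1.06 FPKM on average), and Lrp2 was called down (1.43 to 0.230 FPKM). The sum of 7 macrophage markers was 87.0 to 114 FPKM in Control and 9.03 to 11.9 FPKM with TGF-β1, carried by Cd14 (94.3 ± 13.6 to 7.71 ± 0.819 FPKM), and Csf1r was called down as well (6.27 ± 0.979 to 0.411 ± 0.156 FPKM). Cd68 was not called (2.79 ± 0.836 and 2.22 ± 0.448 FPKM), and Ptprc, Lyz2, Aif1 and Itgam were under 1 FPKM throughout. The podocyte markers Synpo, Wt1 and Podxl were called down, for example Wt1 at 5.88 to 9.88 FPKM in Control and 3.61 to 4.35 FPKM with TGF-β1. The 6 endothelial markers were all under 1 FPKM. Of the markers called down, Cldn2, Aqp1 and Csf1r were under 1 FPKM in every TGF-β1 library. They entered the test through the Control libraries alone and had to differ, so their calls are descriptions. Of 11 mesangial markers 6 entered the test, of which 3 were called up and 2 down, beside 48.1% of all tested rows. Cspg4, under the filter, was called up (0.0735 ± 0.0367 to 1.21 ± 0.257 FPKM). The sum of the 11 was 3119 to 3672 FPKM in Control and 7430 to 7750 FPKM with TGF-β1, carried by Acta2 and Vim. Acta2 went from 997 ± 89.7 to 3887 ± 348 FPKM and Vim from 2191 ± 238 to 3436 ± 175 FPKM. Both were called up, as was Serpine2. Pdgfrb (37.5 ± 4.82 to 29.2 ± 0.751 FPKM) and Fhl2 (243 ± 20.3 to 193 ± 7.55 FPKM) were called down. The part of these markers in the prostaglandin genes' changes was not tested. In bulk RNA, fewer cells of a type and less RNA per cell cannot be told apart.

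The other synthase genes of the set were close to silent. Ptges, the inducible prostaglandin E synthase on mm9 chromosome 2 (30744991 to 30785383, minus strand), was at 0.0263, 0.0526 and 0.429 FPKM in Control and at 0.533, 0.0286 and 0.177 FPKM with TGF-β1. The groups overlapped, with 1 to 16 fragments in the Control and 1 to 20 in the TGF-β1 libraries. The log2 difference was 0.09 with a 95% interval of −0.38 to 0.56 (limma without the filter, adjusted p = 0.759), and without TGF-β1 replicate 1 it was −0.07.

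Ptgis, the prostacyclin synthase on mm9 chromosome 2 (167017305 to 167066104, minus strand), was at 0.0655, 0.0657 and 0.0973 FPKM in Control and listed at 0 in the 3 TGF-β1 libraries. That is 1, 1 and 2 fragments against none, under the 3 fragments (0.187 FPKM) set as the floor, so a change was not detectable at this depth and no fold is given. Its difference was not called (−0.11, limma without the filter, adjusted p = 0.0624), though it was with a pseudocount of 0.1 (0.0308) and without Control replicate 1 (0.0327), 2 (0.0342) or 3 (0.0200). The row shares 156 bases, 9.12% of its length, with exons of 1110018N20Rik on the opposite strand.

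**Figure D2:**
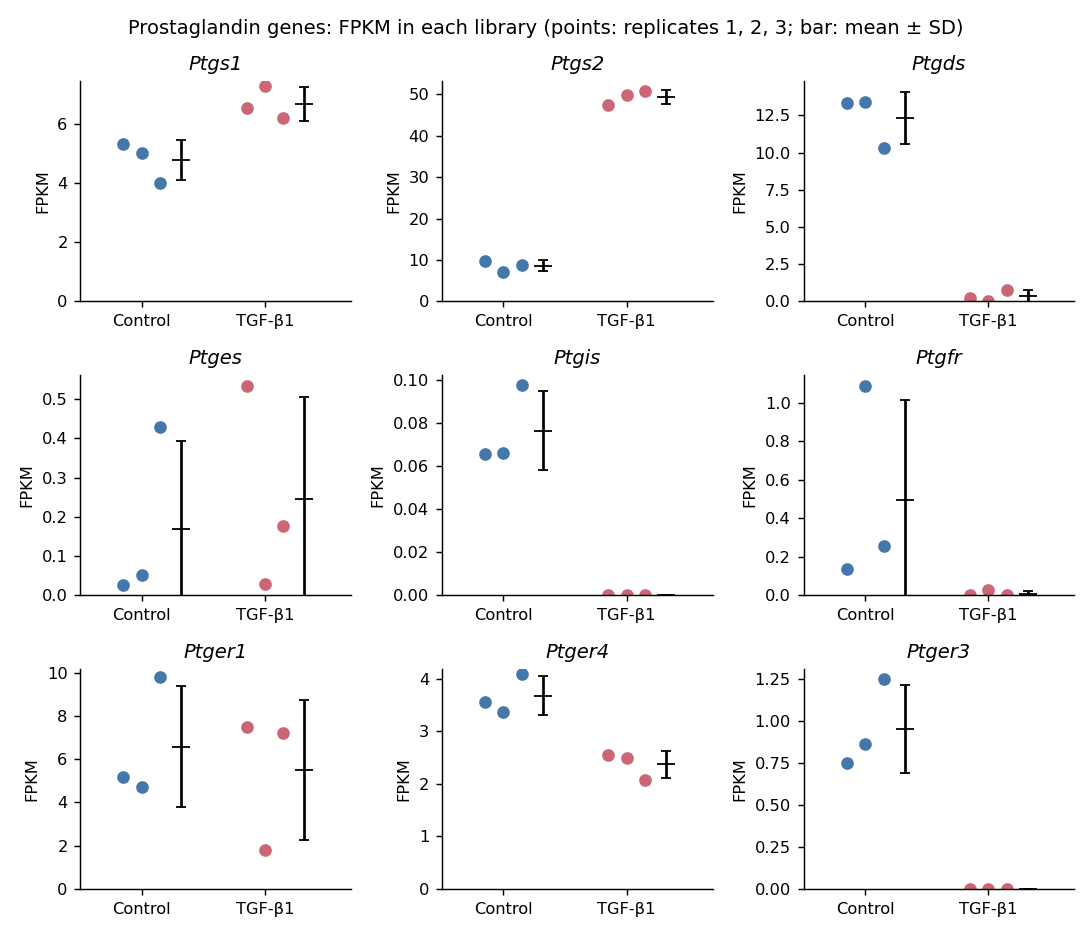
FPKM of the 8 prostaglandin genes with a row and of Ptger3 in each library, with Control in blue and TGF-β1 in red, points for replicates 1 to 3 from left to right, and bars for the mean ± SD (cut at 0 where the SD exceeds the mean). Each panel has its own axis from 0. Ptgs2 and Ptgs1 sit higher with TGF-β1, Ptgds and Ptger4 lower, and the groups of Ptges and Ptger1 overlap.

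Among the receptors, Ptger4 encodes EP4, which couples prostaglandin E2 to cAMP formation. It was at 3.56, 3.37 and 4.09 FPKM in Control, against 2.55, 2.49 and 2.08 FPKM after TGF-β1. Every treated library was below every control library. The mean went from 3.67 ± 0.368 to 2.38 ± 0.254 FPKM (SD, n = 3), 1.55-fold higher in Control.

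The log2 difference of Ptger4 was −0.47 with a standard error of 0.11 and a 95% interval of −0.74 to −0.19, and limma called it downregulated (adjusted p = 0.0158). Of the 18 alternative settings, quantile normalization alone ended the call (−0.30, adjusted p = 0.0832). With replicates 1 and 3 alone it was −0.54 (adjusted p = 0.0493). The gene lies on mm9 chromosome 15 (5156661 to 5194187, minus strand). The row is labelled with a processed transcript of 3771 nt, of which 1097 bases (29.1%) are shared with exons of Gm15937 and Ttc33 on the opposite strand. The use of read strand is not stated, so reads of these genes cannot be told apart there. Ttc33 was at 10.5 ± 1.99 and 9.37 ± 1.60 FPKM and was not called, and Gm15937 was at 0.614 ± 0.145 and 0.155 ± 0.114 FPKM and was called down in the fit without the filter (−0.48, adjusted p = 0.0155).

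Ptger1 encodes EP1, a receptor for prostaglandin E2 that raises cell calcium. It was at 5.20, 4.73 and 9.79 FPKM in Control and at 7.51, 1.78 and 7.21 FPKM with TGF-β1. The groups overlapped, with Control replicate 3 the highest and TGF-β1 replicate 2 the lowest library. The log2 difference was −0.33 with a standard error of 0.49 and a 95% interval of −1.50 to 0.85 (limma, adjusted p = 0.608). The data are compatible with changes in either direction within that interval.

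The sign of the Ptger1 difference rested on TGF-β1 replicate 2: without that library it was 0.20 (adjusted p = 0.608), and with replicates 1 and 3 alone it was 0.03 (0.945). The row has a GC content of 58.2%, and TGF-β1 replicate 2 was the library whose deviation ran against GC content, but the part of this in the value was not tested. The gene lies on mm9 chromosome 8 (86190732 to 86196652, plus strand). Its row is labelled with a transcript that retains an intron, 3474 nt long, and not with a protein-coding one, so the level of Ptger1 is uncertain.

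Ptgfr, the receptor for prostaglandin F2α, lies on mm9 chromosome 3 (151461882 to 151500594, minus strand). It was at 0.136, 1.09 and 0.258 FPKM in Control and at 0, 0.0246 and 0 FPKM with TGF-β1. All control values were above all treated values, and Control replicate 2, with 48 fragments against 6 and 11, stood apart from the other controls. The log2 difference was −0.52 with a 95% interval of −1.07 to 0.04 and was not called (limma without the filter, adjusted p = 0.148). It was called without Control replicate 2 (−0.25, adjusted p = 0.0386) and with a pseudocount of 0.1 (−2.11, adjusted p = 0.0417).

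**Figure D3:**
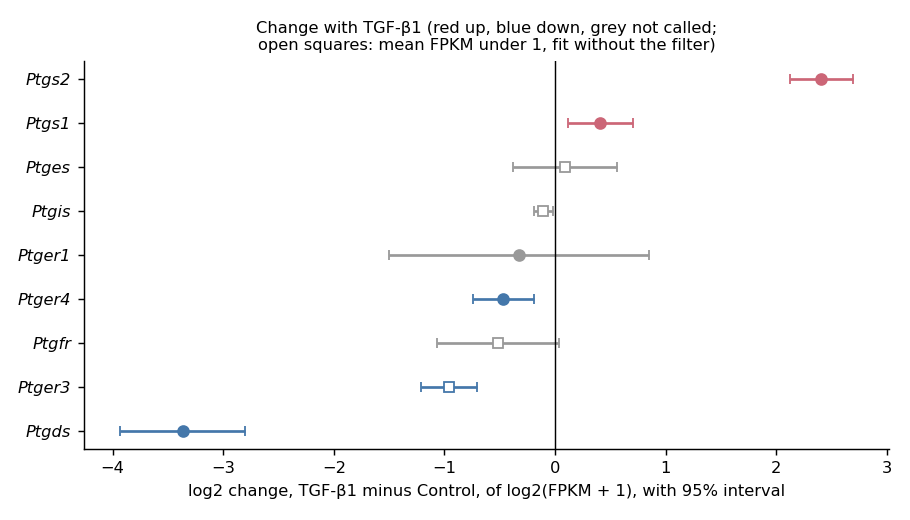
Difference of log2(FPKM + 1), TGF-β1 minus Control, for the 8 genes and Ptger3, with 95% intervals from limma. Red and blue points were called up and down, grey points were not called, and open squares are genes under 1 FPKM on average. Ptgs2 lies farthest to the right at 2.40 and Ptgds farthest to the left at −3.36.

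Ptger3, which encodes EP3, a receptor that lowers cAMP, is no member of the set but is another E receptor gene. It was at 0.748, 0.861 and 1.25 FPKM in Control, from 15, 17 and 24 fragments, and was listed at 0 in all 3 TGF-β1 libraries. The difference of −0.96 (95% interval −1.21 to −0.71) was called in the fit without the filter (limma, adjusted p = 0.00126) and in all 15 alternative settings that gave a value. The receptor genes for prostacyclin and thromboxane, Ptgir and Tbxa2r, were not called. Ptgir stayed at or under 0.0716 FPKM, and Tbxa2r was at 0.577, 0.463 and 0.237 FPKM in Control and at 0, 0.0632 and 0.354 FPKM with TGF-β1.

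The receptor genes Ptger1, Ptger3, Ptger4, Ptgfr, Ptgir, Tbxa2r and Gpr44 were added together. Ptger2 and Ptgdr had no row, so the sums and shares leave them out. The sum was 10.3, 10.5 and 15.7 FPKM in Control and 10.1, 4.36 and 9.65 FPKM with TGF-β1. The Ptger1 row was the largest part in every library but TGF-β1 replicate 2, with 52.6% ± 8.91 in Control, against 63.3% ± 19.5 after TGF-β1 (SD, n = 3), and that share is as uncertain as the level of the row. Without Ptger1 the sum was 5.10, 5.79 and 5.90 FPKM in Control and 2.59, 2.58 and 2.44 FPKM with TGF-β1. The treated libraries then lay close together and below all controls. Ptger4 made up 65.8% ± 6.55 of this sum in Control and 93.6% ± 7.07 with TGF-β1, while Ptger3 made up 16.9% ± 3.67 in Control. The Ptger4 share is uncertain too, as its row is labelled with a processed transcript that shares 29.1% of its bases with genes on the opposite strand. These sums and shares are descriptions without a test.

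**Figure D4:**
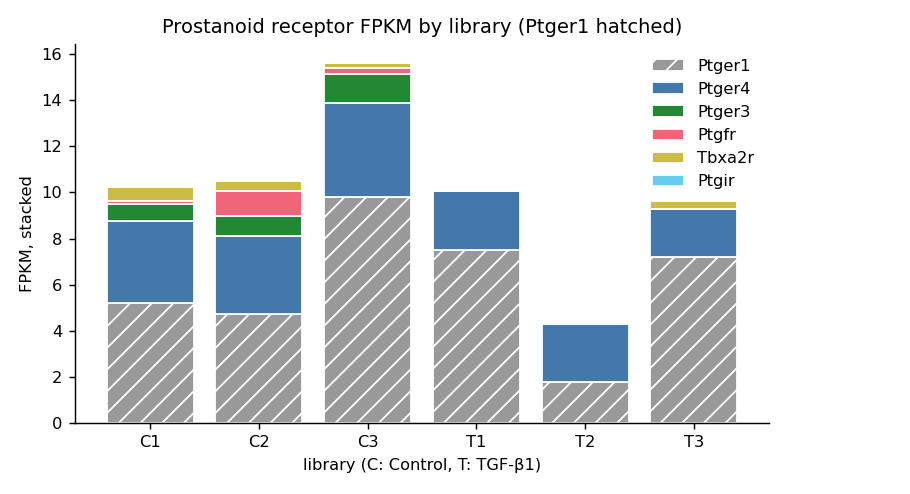
Stacked FPKM of Ptger1, Ptger4, Ptger3, Ptgfr, Tbxa2r and Ptgir in each Control (C1 to C3) and TGF-β1 (T1 to T3) library. The uncertain Ptger1 row is hatched. Gpr44, at 0.0380 FPKM or less, is in the sums given here but is not drawn. Above the hatched part, Control bars add 5.10 to 5.90 FPKM and hold Ptger4, Ptger3 and small parts of others, and TGF-β1 bars add 2.44 to 2.59 FPKM, nearly all Ptger4. The Ptger4 row shares bases with genes on the opposite strand, so its level is uncertain as well.

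Ordered by mean level per length, the Control order was Ptgds, Ptgs2, Ptger1, Ptgs1, Ptger4, Ptgfr, Ptges and Ptgis. The TGF-β1 order was Ptgs2, Ptgs1, Ptger1, Ptger4, Ptgds, Ptges, Ptgfr and Ptgis. The places of Ptger1 and Ptger4 in both orders are as uncertain as the levels of their rows. In Control, the ranges of Ptgs2 and Ptger1, Ptger1 and Ptgs1, Ptgs1 and Ptger4, Ptgfr and Ptges, and Ptges and Ptgis overlapped, so these neighbours did not differ beyond their spread. With TGF-β1, the same held for Ptgs1 and Ptger1, Ptger1 and Ptger4, Ptgds and Ptges, and Ptgfr and Ptgis.

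The genes around the set were described from 7 lists taken from textbook knowledge, each beside the 48.1% called and the median difference of −0.02 over all tested rows. List genes that passed the filter through 1 group alone had to differ, so the counts of the lists are descriptions. Counts of called genes under the filter stand beside 30.5% of all 19730 rows called without it, and they are descriptions too. That share includes the rows past the filter, so it is not the share for rows under it, which is not given. Of 12 tested genes that release or handle arachidonic acid, 4 were upregulated and 3 downregulated (58.3%), with a median difference of −0.07. Pla2g16, a phospholipase best known from fat cells, went from 9.85 ± 1.78 to 47.8 ± 4.80 FPKM (2.18, limma, adjusted p = 9.83e-05). Pla2g4b fell from 12.5 ± 3.02 to 4.96 ± 0.738 FPKM (−1.17, adjusted p = 0.00264). Pla2g4a, the cytosolic phospholipase that supplies cyclooxygenases, was at 51.7 ± 5.08 and 70.2 ± 11.5 FPKM (0.43, adjusted p = 0.0454), a call lost in 12 of the 18 settings. Those included leaving out Control replicate 1 (0.0695), 2 (0.0876) or 3 (0.114) or TGF-β1 replicate 1 (0.108) or 2 (0.0965). Of 11 further genes under the filter 2 were called down, Dagla and Faah, a hydrolase of fatty acid amides (1.39 ± 0.164 to 0.138 ± 0.0248 FPKM, −1.07, adjusted p = 0.000360).

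Of 8 other tested genes for prostanoid synthesis, breakdown and transport, 3 were upregulated and 2 downregulated (62.5%, median −0.18). Abcc4, which exports prostaglandins, fell from 12.5 ± 0.620 to 6.10 ± 0.270 FPKM (−0.92, limma, adjusted p = 0.000269). Ptges3, the cytosolic prostaglandin E synthase and an Hsp90 cochaperone, rose from 63.0 ± 7.99 to 92.9 ± 8.73 FPKM (0.56, adjusted p = 0.0110). Ptges2 (9.53 ± 2.17 and 7.11 ± 0.427 FPKM) was not called (−0.36, adjusted p = 0.0973), but it was with protein-coding scaling (−0.53, 0.0351). Slco2a1, which takes prostaglandins up, was not called (6.25 ± 0.818 and 4.86 ± 1.13 FPKM, −0.32, adjusted p = 0.160), but it was without TGF-β1 replicate 2 (−0.47, 0.0448). Ptges3 and Ptges2 were at 7.11 FPKM or more on average in both groups, beside Ptges at 0.169 and 0.246 FPKM. Of 4 further genes under the filter 2 were called down. They were Hpgds, the hematopoietic prostaglandin D synthase (0.401 ± 0.173 to 0.0282 ± 0.0488 FPKM, −0.44, adjusted p = 0.0201), and Cbr3 (−0.75, adjusted p = 0.00473). Of 3 other tested receptor genes (Ppard, Pparg and Ptgfrn), limma called none, and none passed an unadjusted p of 0.05.

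Of 7 tested genes for other routes of arachidonic acid, 1 was upregulated and 3 downregulated (57.1%, median −0.45). Cyp1b1, a cytochrome P450 that oxidises it, fell from 217 ± 28.6 to 97.9 ± 3.49 FPKM (−1.13, limma, adjusted p = 0.000458). Of 12 genes under the filter 2 were called down, Aloxe3 (−0.23, adjusted p = 0.0139) and Cyp2j9. Cyp2j9, an epoxygenase, fell from 1.29 ± 0.410 to 0.0884 ± 0.0541 FPKM (−1.06, adjusted p = 0.00315).

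Among 18 tested genes known to regulate Ptgs2, 3 were upregulated and 10 downregulated (72.2%, median −0.40). The list holds genes known to raise Ptgs2 and genes known to lower it, and the 10 called down included both kinds. Nr3c1, the glucocorticoid receptor (−0.82, limma, adjusted p = 0.00127), and Nfkbia, an inhibitor of NF-κB (−0.57, adjusted p = 0.00876), are known to lower Ptgs2 and were called down. Elavl1, known to stabilise Ptgs2 mRNA, was called up (0.64, adjusted p = 0.00214). Anxa1 was called up as well (0.66, limma, adjusted p = 0.00393). Tnfrsf1a (−0.48, adjusted p = 0.00629), Nfkb1 (−0.31, 0.0103), Rela (−0.24, 0.0446) and Tsc22d3 (−0.57, 0.00502) were also called down. Several genes known to raise Ptgs2 were lower too, in the same libraries in which Ptgs2 was higher. Fos, a subunit of AP-1, went from 5.27 ± 1.12 to 1.54 ± 0.117 FPKM (−1.29, limma, adjusted p = 0.000984), and Egr1, an immediate early factor, from 46.5 ± 9.13 to 17.8 ± 2.22 FPKM (−1.33, adjusted p = 0.00102). Il1r1, the receptor for interleukin-1, fell from 1.95 ± 0.252 to 0.164 ± 0.0691 FPKM (−1.34, adjusted p = 0.000486), and Il1rn, its natural antagonist, rose from 6.84 ± 2.38 to 16.6 ± 2.14 FPKM (1.21, adjusted p = 0.00857). Il1r1 was under 1 FPKM with TGF-β1 and entered the test through the Control libraries alone. Zfp36l1, which promotes the decay of AU-rich mRNAs, fell from 87.8 ± 7.68 to 30.8 ± 3.83 FPKM (−1.48, adjusted p = 0.000200). Whether any of these bears on the level of Ptgs2 was not tested.

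Downstream of EP receptors, 6 of 21 tested rows of the cAMP pathway were upregulated and 5 downregulated (52.4%, median −0.14). Rapgef3, the exchange factor that cAMP activates, fell from 10.5 ± 2.41 to 1.40 ± 0.563 FPKM (−2.27, limma, adjusted p = 0.000465). Adcy7, an adenylyl cyclase, rose from 0.330 ± 0.108 to 3.12 ± 0.308 FPKM (1.63, adjusted p = 0.000196), and Areg, the growth factor amphiregulin, rose from 0.0601 ± 0.0520 to 3.00 ± 0.444 FPKM (1.91, adjusted p = 0.000133). Adcy7 and Areg were under 1 FPKM in Control and entered the test through the TGF-β1 libraries alone. Of 9 further rows under the filter 1, Adcy1, was called up. Of 15 tested genes of the Gq and calcium route, which EP1 and the F receptor use, 3 were upregulated and 3 downregulated (40.0%, median −0.17). Nfatc1, a calcium-dependent transcription factor, rose from 3.61 ± 0.271 to 8.97 ± 1.14 FPKM (1.11, adjusted p = 0.000491). Itpr1, a calcium release channel, fell from 10.4 ± 0.731 to 4.55 ± 0.421 FPKM (−1.04, adjusted p = 0.000369). Of 5 genes under the filter 3 were called, and these are all the regulators of G protein signalling that the list holds. Rgs4 (−1.08, adjusted p = 0.000537) and Rgs2 (−0.82, adjusted p = 0.0349) were called down and Rgs5 up (0.20, adjusted p = 0.0336).

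**Figure D5:**
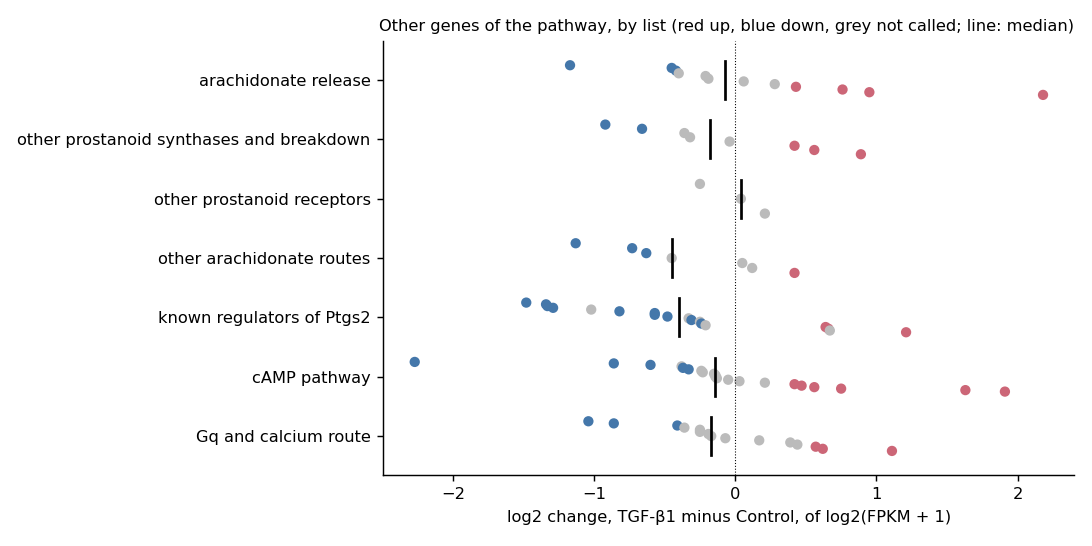
Difference of log2(FPKM + 1), TGF-β1 minus Control, of each tested gene of the 7 lists, with called increases in red, called decreases in blue, others in grey and the median as a black line. The regulators of Ptgs2 hold 10 blue and 3 red points, and each other list with called genes has both colours.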

How the data were processed

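RNA-Seq of 6 libraries was used, 3 Control and 3 TGF-β1, with groups and replicate numbers taken from the labels. After filtering for read quality, the authors aligned reads to the mouse mm9 genome with TopHat (TopHat2 2.0.11 in the submitters' processing notes) and computed FPKM with Cufflinks. The deposited table holds these FPKM values per library, and no further scaling is stated. The strand setting and the gene annotation are not given in the sources used here. The authors tested counts with DESeq, and counts were not used here.

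Groups were compared on log2(FPKM + 1) by limma 3.58.1 (R 4.3.3, lmFit and eBayes, trend on). Tests were two-sided, with p-values adjusted by Benjamini-Hochberg over all tested rows and a threshold of 0.05. Tested rows had an average of 1 FPKM or more over the 6 libraries. Genes under this filter were taken from the same fit without it, and differences of low genes are understated on this scale. The fit was tested on simulated data. Python 3.11.15, numpy 2.4.6, pandas 2.3.3 and matplotlib 3.10.9 were used.

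Depth was estimated from FPKM under 0.6 in transcripts of at least 500 nt, as whole multiples of 1 fragment (tolerance 0.1, assumed fragment length 200 nt), and 99.4% to 99.9% of values per library were whole. Transcript lengths depend on the annotation, so fragment numbers are approximate and cover counting error only. Gene positions and overlaps came from GENCODE M1 on mm9, where 19699 of 19730 rows were found by transcript. Whether a row holds its gene or only the transcript named is not stated. Promoter windows were RefSeq's on GRCm38.p6. Some marker and overlap results are not reported here.

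The members, gene lists, markers and motifs were chosen with earlier results of these data known. Besides the members, the text names the called genes of each list with a log2 difference of at least 1, or otherwise the called gene with the largest, plus Ptger3, Ptgir, Tbxa2r, Pla2g4a, Ptges2, Ptges3 and Slco2a1, and the 3 rows of at least 300 nt nearest to the tested member with the largest difference. Other list genes called under the filter (Dagla, Hpgds, Cbr3, Aloxe3, Adcy1, Rgs2 and Rgs5) and single markers were named after their values were seen. So were Nr3c1, Nfkbia, Elavl1, Anxa1, Tnfrsf1a, Nfkb1, Rela and Tsc22d3 among the regulators of Ptgs2. Alternatives were the pseudocount, the filter, 3 scalings, the mean-variance trend, replicate terms, removal of GC and length trends and leaving out libraries. The deviations did not settle whether replicate numbers pair the samples (correlations 0.0921, 0.232 and 0.0853 for equal numbers, −0.194 to 0.117 for the other pairs).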

Additional observations from a re-analysis of the deposited data

How the results depend on the processing

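Of 18 alternative settings, 15 were planned and 3 (scaling to the sum of protein-coding rows, and removal of GC and length trends without and with a replicate block) were chosen after seeing the data. Over 29 named genes they gave 501 values, of which 469 kept direction and side of the threshold, 21 lost the call, 8 gained one and 3 changed sign. Genes under the filter gave no value with trends removed or with a stricter filter. The number of members called was 4, and it was 3 without the filter, with quantile normalization, with replicates 1 and 3 alone and with protein-coding scaling, 6 with a pseudocount of 0.1 and 3 to 5 without single libraries. Genes called over the whole table numbered 4195 to 6026 against 5721.

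The arachidonate release list held 2 called genes with replicates 1 and 3 alone, against 7. The other receptors held 1 called gene without the filter (Ptger3), 1 with protein-coding scaling, 2 with GC and length trends removed and 1 with these removed and the replicate block, against 0. Ptger1 changed sign with replicates 1 and 3 alone (0.03), and its log2 difference ranged from −0.60 to 0.20 without single libraries. Ptges ranged from −0.07 to 0.24. The cause was not tested.

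The deviations did not settle whether replicate numbers pair the samples. Equally numbered libraries had correlations of 0.0921, 0.232 and 0.0853, and the other pairs −0.194 to 0.117. Control 1 correlated best with TGF-β1 replicate 3 (0.117). With the replicate as a block, 5391 genes and 4 members were called, and no member's call changed. Depth limits Ptgis, Ptges, Ptgfr and treated Ptgds, which rest on few fragments.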
